A study of Mus musculus with 30 samples.

Results

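The 10 genes described here encode receptors, inhibitors and direct targets of the bone morphogenetic protein (BMP) and transforming growth factor beta (TGF-beta) pathway. They were taken from a list of names. The rule used no measured value, although the list was drawn up with earlier results of these data known: Eng, Acvrl1, Bmpr2, Tgfbr1, Tgfbr2, Smad6, Smad7, Id1, Id2 and Id3. All 10 were found among 21847 protein-coding genes, and all 10 passed the filter on low counts in each of the 3 comparisons. RNA-seq was available from 14 libraries, all from adult male mouse brain. Acutely isolated endothelial cells (ECs) were GFP-positive cells sorted from Tie2-GFP mice, in which the Tie2 promoter drives GFP (2 libraries), and the sorted GFP-negative cells gave 2 more libraries. The study states that its adult brain EC data join a new cerebrum set with a cerebellum set published earlier. WT cultures (6 libraries) were brain ECs grown for 8 days in medium with serum after selection with puromycin. Replicates 1 and 2 came from C57BL/6J mice, and replicates 3 to 6 from Ctnnb1flex3/+;Tie2-GFP mice, which carry the conditional beta-catenin allele without a Cre. Beta-catenin stabilized cultures (4 libraries) were grown alike from Ctnnb1flex3/+;Pdgfb-CreER;Tie2-GFP mice, in which Pdgfb-CreER, active in ECs, deletes exon 3 of Ctnnb1. All mice with the flex3 allele, controls included, had been injected with 4-hydroxytamoxifen at postnatal day 10, and brains of several mice were pooled for a culture. The WT cultures came from 3 experiments and the stabilized cultures from 2, with a pair of wells from each. Each well entered the fits as a sample of its own. P-values over all cultures therefore mix the spread over wells with that over experiments. They can be too small, because wells of an experiment are not independent. Within method A, or method B at 36 cycles, each cultured group came from 1 experiment. P-values there and of the interaction do not cover the spread over experiments. For RNA-seq, isolation followed method A in WT replicates 1 and 2 and stabilized replicates 1 and 2, as the study's methods give it. The other RNA-seq cultures followed method B. For ATAC-seq, the methods give method A to WT replicates 1 and 2 only. WT replicates 3 to 6 and both stabilized replicates of ATAC-seq followed method B. The labels name no isolation method, and a legend in the study gives method B to WT replicates 3 and 4 alone among the WT cultures. The values within methods A and B and their interaction rest on the assignment in the study's methods. WT replicates 3 and 4 were read for 150 cycles at another facility and the other cultures for 36 cycles as paired reads, whereas the acutely isolated cells were read for 75 cycles as single reads, so effects of culture and of read type cannot be told apart. Open chromatin was measured by ATAC-seq, which maps sites cut by a transposase, with 2 libraries from acutely isolated ECs, 6 from WT wells and 2 from stabilized wells.

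BMP ligands such as BMP9 (encoded by Gdf2) and BMP10 circulate in blood and bind a complex of the type I receptor ALK1 (Acvrl1), the type II receptor BMPR2 (Bmpr2) and the coreceptor endoglin (Eng) on ECs. Activated type I receptors phosphorylate receptor-regulated SMAD proteins, which enter the nucleus with SMAD4 and switch on the Id genes, whose products block the DNA binding of E proteins. TGF-beta acts through TGFBR2 and TGFBR1, and the inhibitory SMADs encoded by Smad6 and Smad7 are induced by the pathway and damp it. Mutations in ENG and ACVRL1 cause hereditary hemorrhagic telangiectasia, a disease of vessel malformations that can affect the brain, and mutations in BMPR2 cause pulmonary arterial hypertension.

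The DNA around these genes was open in ECs before and after culture, and the following stretches carry that part of the results. Sequences were read from GRCm38 on the forward strand, except the Smad6 promoter, which was taken from RefSeq (GRCm38.p6) in the direction of transcription. The letters searched on both strands were GGCGCC (a GC-rich element of BMP-responsive genes), GTCTAGAC (the palindromic Smad-binding element), TGANTCA (the AP-1 site), GGAATG (the TEAD site) and CTTTGAT (a TCF/LEF site). Capitals mark matches to these letters, and no match overlaps another. A match is a description of the letters and not a measured binding site.
Id1 upstream, open in all libraries, chr2:152735110-152735309, with GGCGCC: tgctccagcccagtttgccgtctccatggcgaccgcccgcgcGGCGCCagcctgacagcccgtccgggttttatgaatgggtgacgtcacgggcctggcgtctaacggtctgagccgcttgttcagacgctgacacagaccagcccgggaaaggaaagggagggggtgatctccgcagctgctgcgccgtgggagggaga
Smad6 promoter, 190 bases before to 10 bases after the start site, open in all libraries, chr9:64022050-64022249, reverse strand, with GTCTAGAC across the start site: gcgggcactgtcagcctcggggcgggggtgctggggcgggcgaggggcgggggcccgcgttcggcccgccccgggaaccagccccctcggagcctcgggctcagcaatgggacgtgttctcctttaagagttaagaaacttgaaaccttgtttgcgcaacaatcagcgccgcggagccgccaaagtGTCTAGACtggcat
Id2 upstream, open in acutely isolated ECs and in no culture, chr12:25104008-25104207, with GTCTAGAC: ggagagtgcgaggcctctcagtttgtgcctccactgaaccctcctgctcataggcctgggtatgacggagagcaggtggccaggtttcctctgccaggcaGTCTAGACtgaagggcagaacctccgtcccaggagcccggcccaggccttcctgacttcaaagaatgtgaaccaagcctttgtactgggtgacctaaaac
Bmpr2 intron, open in acutely isolated ECs and in no culture, chr1:59817760-59817959, with TGANTCA: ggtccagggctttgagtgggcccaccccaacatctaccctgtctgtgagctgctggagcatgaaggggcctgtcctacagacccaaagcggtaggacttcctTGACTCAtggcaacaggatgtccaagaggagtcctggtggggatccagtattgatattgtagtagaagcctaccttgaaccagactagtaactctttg
Tgfbr2 intron, open in all cultures and in no acutely isolated library, chr9:116152963-116153162, with TGANTCA and GGAATG: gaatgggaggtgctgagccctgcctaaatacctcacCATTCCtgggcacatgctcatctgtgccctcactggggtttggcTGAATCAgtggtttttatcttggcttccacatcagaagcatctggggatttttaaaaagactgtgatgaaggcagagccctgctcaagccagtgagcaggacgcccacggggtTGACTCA
Smad6 downstream, open in all cultures and in no acutely isolated library, chr9:63941814-63942113, with TGANTCA and GGAATG: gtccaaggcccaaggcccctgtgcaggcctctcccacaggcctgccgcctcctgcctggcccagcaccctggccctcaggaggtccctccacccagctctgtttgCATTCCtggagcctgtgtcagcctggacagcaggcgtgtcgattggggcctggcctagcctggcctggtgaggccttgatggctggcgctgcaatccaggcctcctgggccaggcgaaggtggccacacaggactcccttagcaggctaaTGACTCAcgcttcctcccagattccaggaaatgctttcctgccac
Id3 upstream, open in all cultures and in no acutely isolated library, chr4:136117109-136117308, with TGANTCA: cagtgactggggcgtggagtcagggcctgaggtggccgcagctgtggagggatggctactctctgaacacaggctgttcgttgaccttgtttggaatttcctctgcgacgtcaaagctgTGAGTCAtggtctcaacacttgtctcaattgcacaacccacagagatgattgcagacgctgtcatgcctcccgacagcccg

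Depth ranged from 24284843 to 94686456 estimated counts per library. Levels are given as TPM, in which counts are divided by effective transcript length and scaled to the same sum in every library. Effective lengths are estimated per library by Salmon, the program that quantified the reads. Protein-coding genes took a summed TPM between 363005 and 948488, with the highest values of 947164 and 948488 in WT replicates 3 and 4 (150 cycles), so a TPM is not set against the same background in every library. Fold changes come from counts scaled by the TMM method, which does not use that sum, and TPM was also rescaled to an equal sum over protein-coding genes as a check chosen after seeing the data. A gene was called changed by edgeR's quasi-likelihood test at a Benjamini-Hochberg adjusted p under 0.05, a change over 2-fold and 5 TPM or more in each library of the group with the higher level. All 6 endothelial markers were called higher in GFP-positive than GFP-negative cells, and their summed level was 1638 to 1808 TPM in acutely isolated ECs, 1811 to 5039 in WT cultures and 2002 to 6154 in stabilized cultures. The 6 pericyte markers summed to 506 to 526 TPM in acutely isolated ECs, 351 to 686 in GFP-negative cells and 4.19 to 10.2 in WT cultures. The 4 erythrocyte markers summed to 5443 and 41094 TPM in the acutely isolated ECs and to at most 1.39 in WT cultures. The 5 astrocyte markers summed to 87.2 and 466 TPM in the acutely isolated ECs, 1379 and 3326 in GFP-negative cells and 3.36 to 45.7 in WT cultures. Mitochondrial genes took 10.6% to 11.2% of counts in acutely isolated ECs, 14.9% to 24.2% in GFP-negative cells and 0.667% to 1.58% in WT cultures. The part of these other cells and of the mitochondrial share in the results below was not tested. In these bulk samples, fewer cells of a type and less RNA per cell cannot be told apart.

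The first comparison asked which members are enriched in ECs of the brain. The receptor genes Eng and Acvrl1 and the target gene Id1 differed most. Eng, the BMP9 coreceptor endoglin (chromosome 2, 32646595 to 32682669), was at 272 and 271 TPM in the GFP-positive libraries and at 2.11 and 5.39 TPM in the GFP-negative ones. Acvrl1, the type I receptor ALK1 (chromosome 15, 101128522 to 101145336), was at 184 and 157 TPM against 1.69 and 3.19. Id1 (chromosome 2, 152736251 to 152737410), whose product sequesters E proteins, was at 182 and 243 TPM against 6.84 and 6.22. For each of these genes both GFP-positive libraries lay far above both GFP-negative ones. By edgeR the log2 fold changes were 5.84 ± 0.44 for Eng (SE, adjusted p = 0.00166), 6.06 ± 0.49 for Acvrl1 (adjusted p = 0.00176) and 5.24 ± 0.39 for Id1 (adjusted p = 0.00166).

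The other members differed less. Bmpr2 (chromosome 1, 59763400 to 59879014), the type II receptor for BMPs, was at 248 and 228 TPM in ECs and 14.6 and 17.7 TPM in GFP-negative cells (log2 fold change 3.21 ± 0.34). Tgfbr2 (chromosome 9, 116084293 to 116175360), the type II receptor for TGF-beta, was at 26.9 and 39.2 TPM against 4.81 and 5.12 (3.29 ± 0.35). Id3 (chromosome 4, 136143497 to 136145755), a close relative of Id1, was at 213 and 375 TPM against 63.3 and 75.6 (2.28 ± 0.32). Smad7 (chromosome 18, 75367529 to 75395935), an inhibitory SMAD, was at 15.1 and 15.9 TPM against 4.04 and 3.33 (2.33 ± 0.41). Smad6 (chromosome 9, 63953076 to 64022059), the inhibitory SMAD that acts mainly on BMP signals, was at 4.98 and 5.73 TPM against 0.719 and 0.707. Its log2 fold change was 3.43 ± 0.54 by edgeR (adjusted p = 0.00733), but it was not called, because its TPM of 4.98 in the first library lay just below the required 5. The type I receptor Tgfbr1 (chromosome 4, 47353222 to 47414931) was at 5.95 and 26.8 TPM in ECs and 9.57 and 18.023 TPM in GFP-negative cells. Id2 (chromosome 12, 25093799 to 25097140) was at 26.9 and 12.6 TPM against 12.8 and 30.7. For both genes the groups overlapped, with log2 fold changes of −0.39 ± 0.37 for Tgfbr1 and 0.20 ± 0.65 for Id2 (adjusted p = 0.474 and 0.850 by edgeR).

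In total, 7 of 10 members were called higher in ECs and 0 lower, whereas 8.28% of 15116 genes tested were called higher and 7.55% lower. The ranges of TPM did not overlap for 8 of 10 members, compared with 49.1% of 8754 genes with a mean of at least 5 TPM. The median log2 fold change was 3.25 over the members and −0.06 over all genes. The 7 calls held in all 12 alternative analyses. Scaling by library size moved the median of all genes to −0.44 and the calls to 929 higher and 1419 lower, from 1252 and 1142. Without acutely isolated replicate 1, Smad6 was called as well (3.18). Such a fit leaves 1 library in a group, which is assumed to vary like the libraries of the other group.

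The second comparison asked what culture did to these genes, and the largest difference was in Bmpr2. Bmpr2 was at 248 and 228 TPM in acutely isolated ECs. In the WT cultures it was at 14.9, 24.5, 4.19, 3.75, 43.7 and 32.5 TPM. Every culture lay below both acutely isolated libraries, and the 150-cycle replicates 3 and 4 were lowest. The log2 fold change was −3.64 ± 0.90 (SE, adjusted p = 0.0106 by edgeR), and Bmpr2 was called lower in all 20 alternative analyses, with values from −4.08 to −3.11. In the stabilized cultures it was at 32.6, 53.1, 32.3 and 29.0 TPM, also below both acutely isolated libraries.

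Id1 and Id3, the BMP targets with the highest levels, were also called lower in culture. Id1 was at 182 and 243 TPM in acutely isolated ECs and at 135, 192, 125, 146, 113 and 111 TPM in WT cultures. On the deposited scale only WT replicate 2 reached the acutely isolated range, and with TPM rescaled to the protein-coding sum every culture (132 to 410) lay below both acutely isolated libraries (436 and 473). The log2 fold change was −1.52 ± 0.52 (adjusted p = 0.0397 by edgeR). Id3 was at 213 and 375 TPM in acutely isolated ECs and at 239, 277, 386, 443, 100 and 90.9 TPM in WT cultures. The groups overlapped on this scale, with WT replicates 3 and 4 above the acutely isolated ECs and replicates 5 and 6 below them. With TPM rescaled to the protein-coding sum, WT cultures ranged from 209 to 658 (median 437). The acutely isolated libraries were then at 511 and 730, so no culture lay above both. The scaled counts gave a log2 fold change of −1.43 ± 0.42 for Id3 (adjusted p = 0.0214 by edgeR). Each of these calls held in 13 of 20 alternative analyses. Neither held when counts were scaled by library size (−1.32 and −1.20), when the wells of an experiment were summed, or within method A (−0.95 and −0.88). Both were also lost with replicate number as a block, which in this comparison rests on the same method A wells. Without acutely isolated replicate 1 the adjusted p of edgeR was 0.126 for Id1 and 0.0606 for Id3, and without replicate 2 it was 0.113 and 0.120, each with 1 acutely isolated library, whose spread is taken from the cultures. The call for Id1 was also lost without WT replicate 6 (adjusted p = 0.0600 by edgeR). Id2, the least abundant Id gene among the members, was at 26.9 and 12.6 TPM in acutely isolated ECs and at 14.9, 22.6, 12.4, 12.6, 6.79 and 6.57 TPM in WT cultures. It was not called, with a log2 fold change of −1.54 ± 0.58 (adjusted p = 0.0567 by edgeR), and it was called lower in 7 of 20 alternatives, among them those without acutely isolated replicate 2 (−2.16), WT replicate 1 (−1.75) or WT replicate 2 (−1.78).

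Smad6 and Tgfbr2 were called higher in culture with a transcript length offset but not from total counts over all 6 cultures. Smad6 was at 4.98 and 5.73 TPM in acutely isolated ECs and at 57.8, 69.5, 25.0, 24.1, 26.9 and 20.1 TPM in WT cultures, so that every culture lay above both acutely isolated libraries. The mean TPM was 6.95 times as high in culture, whereas the counts gave a log2 fold change of 1.19 ± 0.92 (adjusted p = 0.317 by edgeR). Tgfbr2 was at 26.9 and 39.2 TPM in acutely isolated ECs and at 92.9, 136, 285, 254, 49.4 and 55.1 TPM in WT cultures, also without overlap. Its mean TPM was 4.40 times as high, and the counts gave −0.05 ± 0.39 (adjusted p = 0.928 by edgeR). With the average effective transcript length in each library as an offset, the log2 fold changes were 2.36 ± 0.83 for Smad6 and 1.32 ± 0.46 for Tgfbr2. Both were called higher (adjusted p = 0.0413 and 0.0408 by edgeR). Smad6-201 of 2971 bases held 99.3% to 100% of Smad6 counts in acutely isolated ECs and 99.96% to 100% in WT cultures. The part of the effective length of a single transcript in this shift was not tested. The same offset kept Bmpr2 (−3.84) and Id1 (−1.14) as called lower, and gave Id3 a log2 fold change of −0.89 ± 0.43, which was not called (adjusted p = 0.115 by edgeR).

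**Figure D1:**
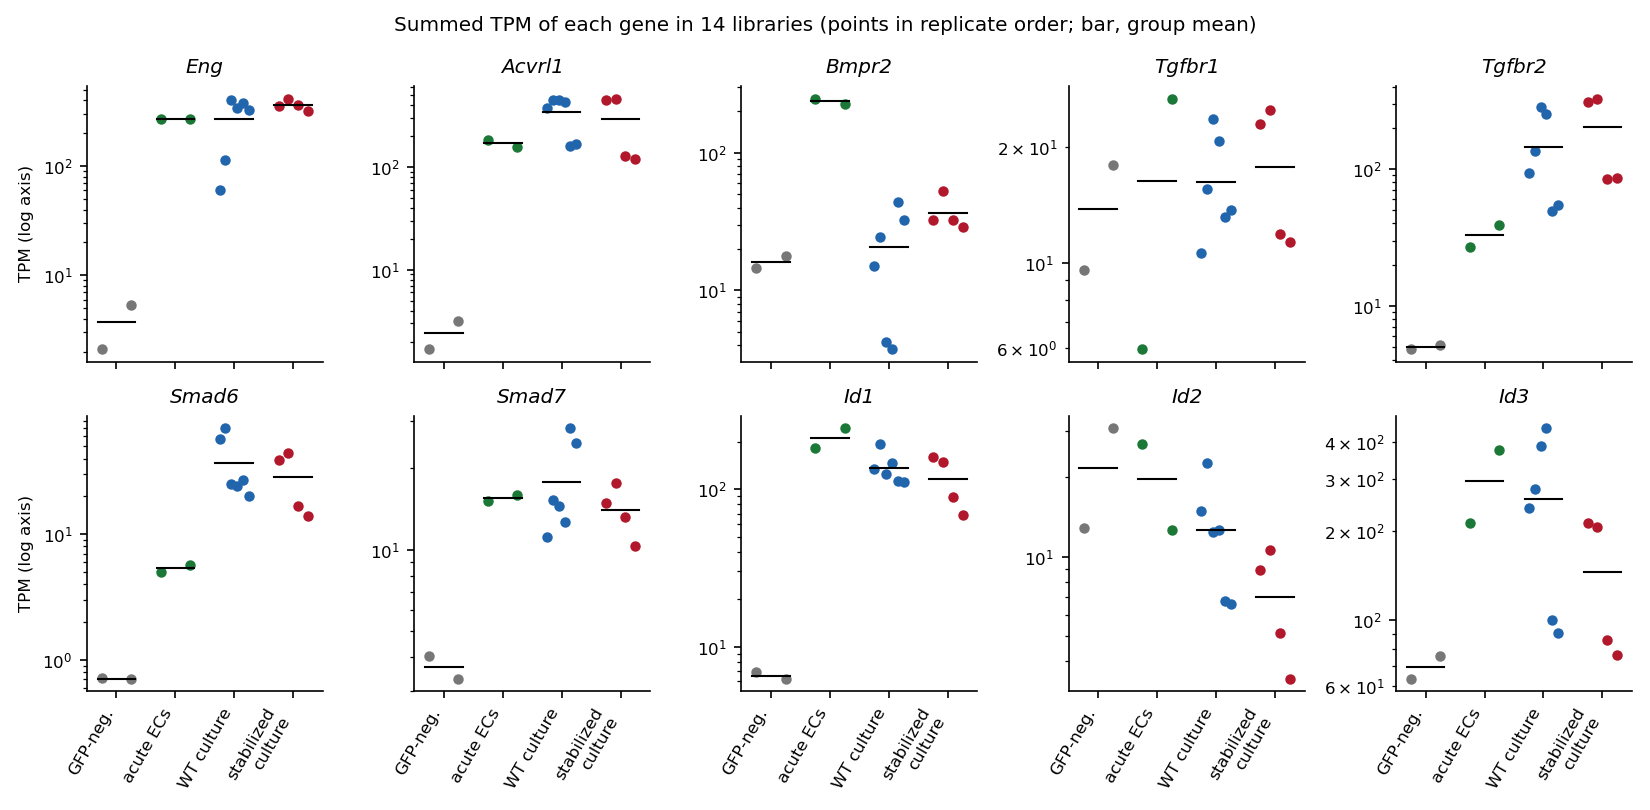
Level of the 10 genes in each RNA-seq library (y axis, summed TPM on a log axis; x axis, the 4 groups with 2, 2, 6 and 4 libraries; points in replicate order, bars the group means). Bmpr2 lies at 228 and 248 TPM in acutely isolated ECs and at most at 53.1 TPM in the cultures, while Smad6 lies at 13.9 TPM or higher in the cultures and at most at 5.73 TPM in acutely isolated ECs.

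The remaining receptors and Smad7 were not called. Eng was at 272 and 271 TPM in acutely isolated ECs and at 60.9, 113, 404, 341, 375 and 329 TPM in WT cultures. On the deposited scale the 2 method A wells lay below the acutely isolated ECs and the 4 method B wells above them. With TPM rescaled to the protein-coding sum, WT cultures ranged from 168 to 924 (median 393). The acutely isolated libraries were then at 527 and 652, so not all 4 method B wells lay above them. The log2 fold change of Eng was −0.42 ± 0.67. Within method A, the log2 fold change of Eng against acutely isolated ECs was −1.64 and it was called lower (adjusted p = 0.0201 by edgeR), whereas within method B (4 wells) it was −0.06 (adjusted p = 0.94 by edgeR). Acvrl1 was at 184 and 157 TPM in acutely isolated ECs and at 377, 448, 450, 429, 161 and 167 TPM in WT cultures (1.16 ± 0.56, adjusted p = 0.119 by edgeR). Its 36-cycle method B wells lay within the range of acutely isolated ECs, and the other 4 wells lay above it. Smad7 was at 15.1 and 15.9 TPM in acutely isolated ECs and between 11.2 and 28.1 TPM in WT cultures (−1.20 ± 0.67, adjusted p = 0.171 by edgeR). Tgfbr1 was at 5.95 and 26.8 TPM in acutely isolated ECs, and all WT cultures lay between these values, at 10.6 to 23.8 TPM (0.08 ± 0.25). Within method A, Acvrl1 (1.91) and Smad6 (2.22) were called higher and Smad7 (−1.30) lower than in acutely isolated ECs, and with the 4 WT wells of 36 cycles Acvrl1 (1.44) and Smad6 (1.67) were called higher. The sign for Tgfbr1 and Tgfbr2 changed with the scaling or the length offset, so no direction is given for them from counts.

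In total, 3 of 10 members were called lower in culture and 0 higher, against 10.2% of 13798 genes called lower and 13.5% called higher. TPM ranges did not overlap for 3 of 10 members and for 49.1% of 8754 genes. After rescaling this held for 4 members and 56.0% of the genes. The median log2 fold change was −0.81 over the members and 0.10 over all genes (0.30 with scaling by library size). Without acutely isolated replicate 1, Bmpr2 remained as the 1 member called.

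**Figure D2:**
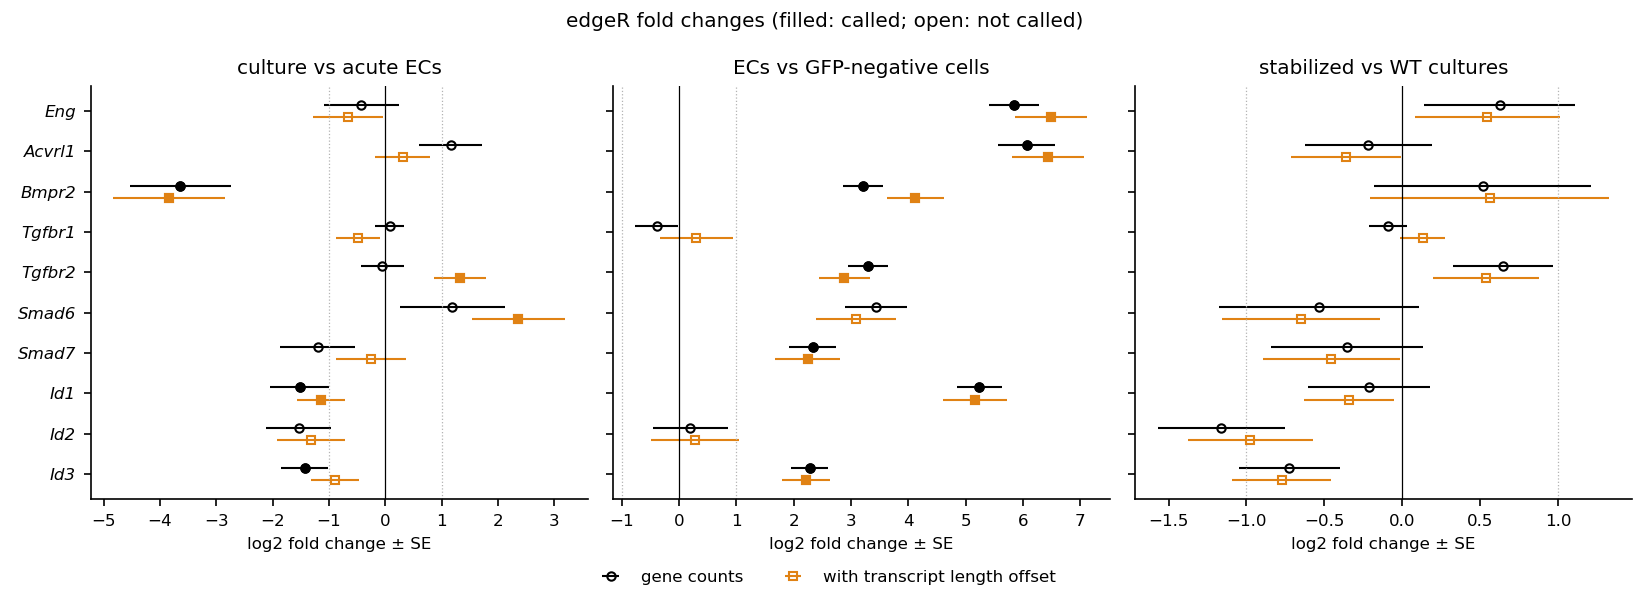
Log2 fold changes with their SE (x axis) of the 10 genes (y axis) in the 3 comparisons, from gene counts (circles) and with a transcript length offset (squares), filled where the gene was called. Smad6 moves from 1.19 to 2.36 and Tgfbr2 from −0.05 to 1.32 in the comparison of culture with acutely isolated ECs, and no member is called in stabilized against WT cultures.

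The transcripts that the reads were assigned to differed between acutely isolated and cultured ECs. For Bmpr2, the retained-intron transcript Bmpr2-203 of 732 bases held 46.4% to 65.3% of the gene's TPM in acutely isolated ECs but only 2.32% to 4.64% of its counts. In WT cultures the full-length Bmpr2-201 of 12899 bases held 93.0% to 100% of TPM, and the mean TPM of this transcript was 104 in acutely isolated ECs and 20.0 in WT cultures. With protein-coding transcripts only, the log2 fold change of Bmpr2 was −3.82 ± 0.89 (adjusted p = 0.00841 by edgeR). For Tgfbr2, the long Tgfbr2-202 of 8092 bases held 65.5% to 89.6% of TPM in acutely isolated ECs and 23.8% to 31.1% in WT cultures. The short Tgfbr2-201 of 3476 bases held 10.4% to 34.5% and 68.9% to 76.2%. For Tgfbr1, the 1713-base Tgfbr1-203 held 52.7% and 77.9% of TPM in the acutely isolated ECs, and Tgfbr1-201 of 5756 bases held 79.2% to 92.3% in WT cultures. For Acvrl1, the 3506-base Acvrl1-205 held 5.97% and 15.8% of TPM in acutely isolated ECs, 14.5% to 51.2% in WT cultures and 48.0% to 58.8% in stabilized cultures. The 312-base Acvrl1-207 held 27.1% and 29.9% in acutely isolated ECs and at most 0.284% in WT cultures. For Eng, short transcripts (Eng-204 of 935 bases and the retained-intron Eng-206 of 611 bases) held 15.2% to 27.9% and 7.41% to 37.4% of TPM in acutely isolated ECs. Single reads and paired reads were assigned in these groups, and the part of read type in transcript assignment was not tested. Exons of Eng overlap Fpgs and exons of Acvrl1 overlap the antisense gene Gm16031, each on the opposite strand, and reads of such partners can be told apart only where strand was used.

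**Figure D3:**
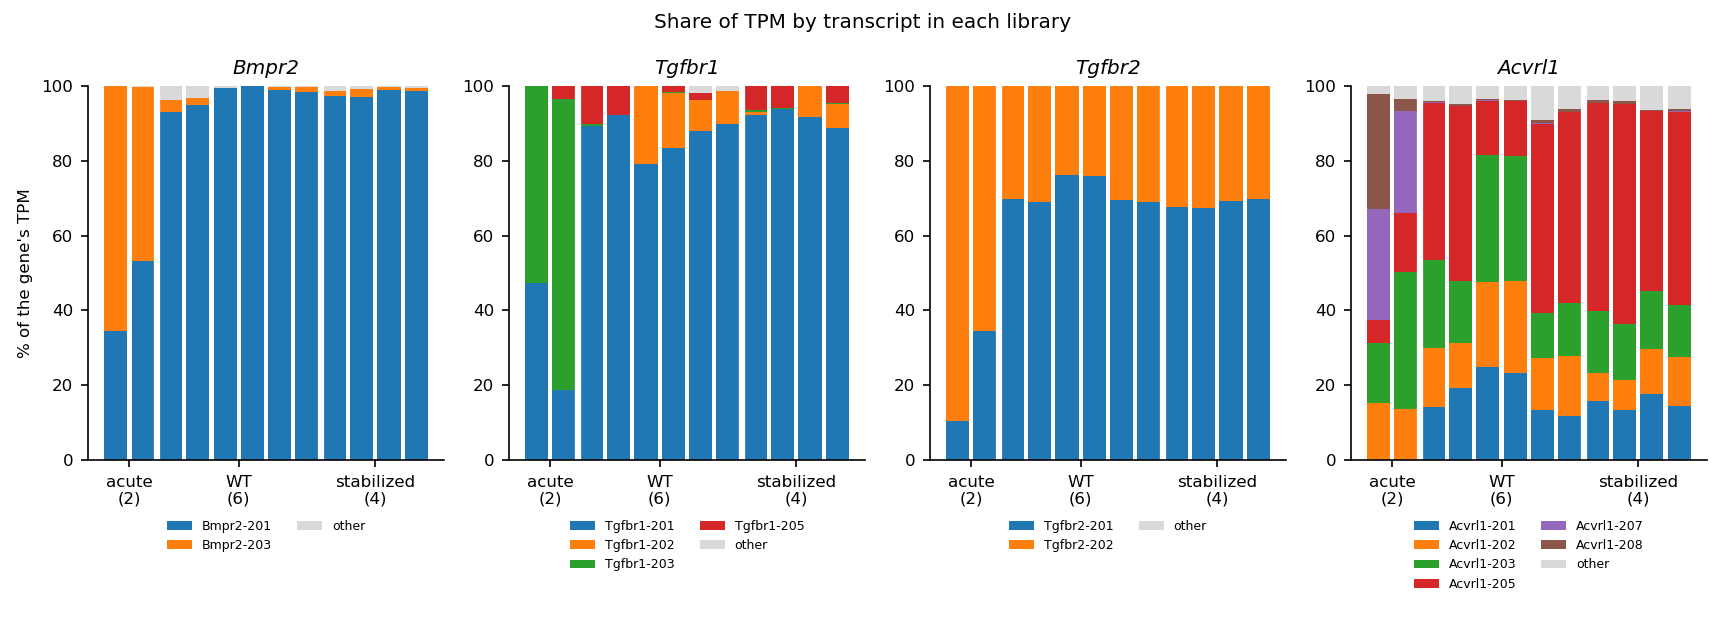
Share of a gene's TPM (y axis, percent) held by each transcript that reaches 10% in any library shown, with the rest in grey, in each library of acutely isolated ECs (2 bars), WT cultures (6) and stabilized cultures (4) for Bmpr2, Tgfbr1, Tgfbr2 and Acvrl1. Bmpr2-203 holds 46.4% to 65.3% only in the acutely isolated libraries, and Tgfbr2-201 holds 10.4% to 34.5% there and at least 67.4% in every culture.

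Experiments of WT culture differed more than wells. Bmpr2 ranged from a mean of 3.97 TPM in the 150-cycle experiment to 38.1 TPM in the 36-cycle method B experiment, a ratio of 9.60, whereas wells of an experiment differed at most 1.64 times. On the deposited TPM scale, the ratio between the highest and the lowest experiment was 5.16 for Tgfbr2, 4.34 for Id3 and 4.27 for Eng. It was 1.46 for Id1, the lowest of the members on that scale. Over 8285 genes with a mean of at least 5 TPM in WT cultures, the median of this ratio was 3.08 and the median of the largest ratio between wells was 1.35. On the deposited scale Id1 differed about as much between experiments as between wells (1.43). With TPM rescaled to the protein-coding sum, Id1 ranged from 132 to 410 over WT cultures and Tgfbr1 from 22.0 to 33.1. On that scale Bmpr2 ranged from 3.95 to 108, Tgfbr2 from 122 to 300, Id3 from 209 to 658 and Eng from 168 to 924. The low spread of Id1 therefore held on the deposited scale only.

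The third comparison asked whether stabilization of beta-catenin changed these genes in culture. The beta-catenin target Axin2 was at 0.0998 to 0.269 TPM in WT cultures and 0.974 to 1.86 TPM in stabilized cultures, with no overlap. Lef1, another target, was at 1.61 to 18.8 TPM (median 7.92) and 4.81 to 10.3 TPM (median 6.94), with overlap. In acutely isolated ECs, Axin2 was at 47.0 and 51.8 TPM and Lef1 at 47.4 and 205 TPM, above every culture. The study describes target genes of the pathway as extremely low in stabilized cultures and takes this to imply that signaling was not activated. The values per gene used here do not resolve the deleted exon of Ctnnb1, so Ctnnb1 itself checks nothing. No member was called over all 10 cultures, as were 0 of 12971 genes (0%), although edgeR gave 1422 genes an unadjusted p under 0.05 and DESeq2 called 18. TPM ranges overlapped for all 10 members, and did not overlap for 0.605% of 8754 genes. The values of Id2, Id3, Tgfbr2 and Eng were farthest from 0. Id2 was at 14.9, 22.6, 12.4, 12.6, 6.79 and 6.57 TPM in WT and 8.89, 10.6, 5.13 and 3.42 TPM in stabilized cultures (log2 fold change −1.16 ± 0.41, adjusted p = 0.408 by edgeR). Id3 was at 239, 277, 386, 443, 100 and 90.9 TPM in WT and 213, 207, 85.7 and 76.3 TPM in stabilized cultures (−0.72 ± 0.32, adjusted p = 0.452 by edgeR). In both genes the method A wells lay above the method B wells of 36 cycles, within WT as within stabilized cultures. Tgfbr2 was at 310, 329, 84.2 and 86.5 TPM in stabilized cultures (0.65 ± 0.32, adjusted p = 0.476 by edgeR). Eng was at 356, 416, 361 and 322 TPM (0.63 ± 0.48, adjusted p = 0.633 by edgeR). Id1 was at 160, 148, 89.1 and 68.2 TPM and Smad6 at 39.2, 44.4, 16.8 and 13.9 TPM, with log2 fold changes of −0.21 ± 0.39 and −0.54 ± 0.64. The other 4 members had log2 fold changes from −0.35 to 0.52.

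Within each isolation method, with 2 wells per group from 1 experiment each, stabilization and experiment cannot be told apart. Within method A, Eng was called higher in stabilized cultures (1.36 ± 0.16), and Id2 (−1.82 ± 0.11), Smad6 (−1.27 ± 0.08) and Id3 (−1.07 ± 0.10) were called lower. Within method B at 36 cycles, Smad7 was called lower (−1.02 ± 0.13), and Eng (0.08 ± 0.09) and Id3 (−0.09 ± 0.07) were near 0. Tgfbr2 was higher and Id1 and Id2 were lower in method A and in the 36-cycle wells of method B, at 0.74 and 0.82 for Tgfbr2, −0.75 and −0.38 for Id1 and −1.82 and −0.57 for Id2. With all 4 WT wells of method B, the log2 fold change of Id1 was 0.18. With isolation method as a term over the 8 libraries of 36 cycles, Id2 was called lower (−1.21 ± 0.26, adjusted p = 0.0230 by edgeR). A test of the interaction found a differing effect of stabilization between methods for 6 of 10 members, beside 51.7% of 12934 genes.

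**Figure D4:**
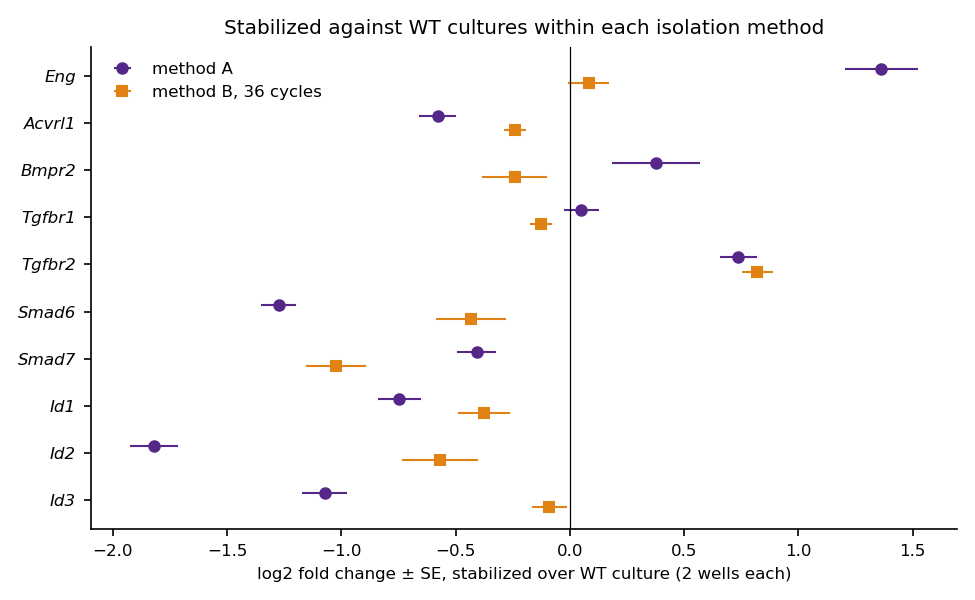
Log2 fold change of stabilized over WT cultures with its SE (x axis) for the 10 genes (y axis) within method A and within method B at 36 cycles, 2 wells per group. Eng differs most between the methods (1.36 and 0.08), and Tgfbr2 lies close together (0.74 and 0.82).

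Of 76 other genes of the pathway, arranged in 8 lists, 69 were tested in culture, where 12 were called higher and 9 lower (13.5% and 10.2% of all genes). In ECs against the GFP-negative fraction, 71 were tested, with 14 called higher and 11 lower (8.28% and 7.55% of all genes). In stabilized cultures 0 of 69 were called. List sizes below include genes that were not tested, such as 4 of the 15 ligands in culture. Genes counted below as rising or falling are those that were called, with the minimum of 5 TPM. Beyond the genes with the largest change in each direction (among them Thbs1, Ccn2, Ltbp4, Tob1 and Ski in culture), pathway genes are named by their call after their values were seen. Among 15 ligands, 3 rose in culture and 0 fell: Bmp2 (log2 fold change 5.85), Bmp4 (4.87) and Bmp6 (4.32). Bmp5 was lower (−4.89, adjusted p = 0.000562 by edgeR) but was not called because of the minimum of 5 TPM. Gdf2 was listed at 0 in all 14 libraries, and Bmp10 had 13 counts in acutely isolated ECs and 0 in the other groups. Among 9 genes for latency and presentation of TGF-beta, Thbs1 (9.64), whose product thrombospondin 1 activates latent TGF-beta, and Lrrc32 (2.92) rose, while Ltbp4 (−6.26), a latent TGF-beta binding protein, fell. Thbs1 went from 0.352 ± 0.0460 TPM (SD, n = 2) in acutely isolated ECs to 787 ± 223 TPM (n = 6) in WT cultures, and Ltbp4 from 128 ± 10.0 to 3.10 ± 2.26 TPM. Among 10 other receptors and coreceptors, 2 fell in culture, the type I receptor Acvr1 (−1.82) and the coreceptor Tgfbr3 (−1.89), and 0 rose. Of 6 signal-transducing Smads, 1 fell (Smad5, −1.41). Of 11 extracellular inhibitors, 1 was called higher (Fstl3, 2.71). Fst, which encodes follistatin, had 0 counts in acutely isolated ECs and 3.46 to 11.0 TPM in WT cultures (adjusted p = 0.000193 by edgeR), and was not called because of the minimum of 5 TPM. The same held for Bmper, at 0 counts and 0.373 to 2.16 TPM (adjusted p = 0.000311 by edgeR). Grem1 was higher (6.15, adjusted p = 0.0131 by edgeR) and Nog lower (−4.51, adjusted p = 0.000873 by edgeR), likewise without a call. The summed level of the 11 genes was 58.9 to 63.4 TPM in acutely isolated ECs and 96.4 to 774 TPM in WT cultures. Of 12 intracellular inhibitors, 3 rose (Tgif1, Fkbp1a and Smurf1) and 4 fell (Tob1, −2.84, Ski, −2.38, Nedd4l and Pmepa1). Tob1 encodes an antiproliferative protein that restrains BMP signals, and Ski a SMAD corepressor. Among 10 further targets, 3 rose and 0 fell, among them Ccn2 (6.21), a target of TGF-beta that responds to other signals as well, and Atoh8 (3.06), a BMP target. Id4 (−4.66, adjusted p = 0.00120 by edgeR) and Hey2 (−1.85, adjusted p = 0.0149 by edgeR) were lower. They were not called because of the minimum of 5 TPM. Ccn2 ranged from 950 to 4510 TPM over WT cultures and was at 15.5 and 29.3 TPM in acutely isolated ECs. Of the 3 E proteins, Tcf4 fell (−1.22). The median log2 fold change over the 69 of these genes tested was 0.03, beside 0.10 over all genes.

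In ECs against GFP-negative cells, the largest differences included those of the cell cycle inhibitor Cdkn2b (6.04), Ltbp4 (5.01) and the E protein gene Tcf3 (2.90), all higher in ECs. Tgfbi (−5.30), a matrix protein gene induced by TGF-beta, and Rgma (−4.73), a BMP coreceptor gene, were lower. The ligands were called in both directions, with 2 of 15 higher and 3 lower, and of the receptors and coreceptors 1 of 10 was higher and 2 were lower. Of the 8 immediate early genes, which respond to tissue dissociation, 4 were called lower in culture and 2 higher in ECs against the GFP-negative fraction. Their summed level was 160 to 724 TPM in acutely isolated ECs and 141 to 588 TPM in WT cultures, and its part in the levels of the Id genes was not tested.

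Genes with a pattern like that of a member were sought by the Pearson correlation of log2(TPM + 1) over the 14 libraries, among 15777 genes. The libraries fall into the same 4 groups for every gene, so the values are a description. The closest to Id1 were Srgn (r = 0.979), Adgrl4 (0.976) and Arap3 (0.965). Over the 10 cultures alone, their r with Id1 was 0.700, 0.697 and 0.573. The closest to Id3 were H2-D1 (0.977), Chmp5 (0.965) and Zfp764 (0.945), and for these r over the cultures was 0.979, 0.950 and 0.961. The closest to Eng were Pcdh19 (0.977), Mindy3 (0.974) and Cxcl12 (0.958), and those to Smad6 were Nxn (0.980), Ppic (0.975) and Icam1 (0.975).

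Open chromatin was taken from the peaks that were called in each library (fold enrichment over 2 and −log10 q over 2, 31779 to 98732 peaks per library). All 10 members had a peak within 1000 bases of at least 1 annotated start site in all 10 libraries, as did 49.8% of 21951 genes. Single start sites could differ. At Acvrl1, a region 74 bases from 1 start site was present in 2 acutely isolated libraries, 1 WT culture and 0 stabilized cultures. Another, 86 bases from a different start site, was present in 0, 6 and 2. At Smad7, a region 756 bases from a start site was present in 2 acutely isolated libraries and 0 cultures. Bmpr2, which fell in culture, had a start site peak in all 10 libraries. The region 22 bases upstream of its start site had a fold enrichment of 13.03 and 12.83 in acutely isolated ECs. It had 7.70 to 11.29 in WT cultures and 9.66 and 9.21 in stabilized cultures, so every culture lay below both acutely isolated libraries. This difference was not tested. Peaks of all libraries were merged into 126224 regions, of which 226 lay within the members or 50 kb to either side. Of these, 13 were present in both acutely isolated libraries and in no WT culture (5.75%, compared with 2.93% of all regions). A further 18 were present in all 6 WT cultures and in no acutely isolated library (7.96%, compared with 8.09%), and 50 were present in all 8 libraries (22.1%, compared with 13.4%). All 13 were absent from both stabilized cultures and all 18 were present in both, as were 96.9% and 99.1% of the regions of these kinds over the genome. The acutely isolated libraries had 37384 and 31779 peaks. WT replicates 1 and 2 (method A) had 50395 and 33122, and the other cultures (method B) had 79116 to 98732. The part of the number of peaks and of the isolation method in these counts was not tested.

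Bmpr2 had 2 regions lost in culture and 0 gained. The intronic region whose centre is printed above (chr1:59817633-59818199), 54460 bases from the start site, had a fold enrichment of 12.997 and 5.11 in the acutely isolated libraries and no peak in the 8 cultures. A region 23681 bases upstream of Bmpr2 (chr1:59739297-59740376) was present in every library, at a fold enrichment of 5.98 and 3.67 in acutely isolated ECs and 13.6 to 22.5 in WT cultures. Tgfbr2 had 1 region lost and 4 gained. The lost region within the gene (chr9:116114434-116114946) had a fold enrichment of 15.4 and 11.0 in acutely isolated ECs, and the gained one whose centre is printed above had 5.81 to 15.3 in WT cultures. At Tgfbr1, 3 regions were gained and 0 lost, with up to 25.6 at chr4:47327679-47328304, which lies 25232 bases upstream. Eng lost 3 and gained 2, Acvrl1 lost 1 and gained 3, and Smad7 lost 4 and gained 1.

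At the inhibitor Smad6 and at Id1 regions at or just upstream of the start site had peaks in every library. The Smad6 promoter had a fold enrichment of 9.003 and 8.95 in acutely isolated ECs and 5.65 to 10.6 in WT cultures. A region 8340 bases upstream of Smad6 (chr9:64030003-64030753) had 3.80 and 3.41 in acutely isolated ECs and 5.81 to 18.8 in WT cultures, and the region 80068 bases downstream of the start site that is printed above was gained at 10.6 to 22.1. Smad6 lost a region within the gene (chr9:63958310-63958687), at 6.18 and 3.77 in acutely isolated ECs and with no peak in any culture. The Id1 region 1041 bases upstream had 6.65 and 6.57 in acutely isolated ECs and 7.29 to 9.83 in WT cultures, while Id1 RNA was called lower. The region at the Id1 start site had 7.49 and 7.14 in acutely isolated ECs and 5.14 to 9.08 in WT cultures. A region 3232 bases downstream had 6.39 and 5.37 in acutely isolated ECs and 2.60 to 4.51 in WT cultures. Id3 gained a region 26288 bases upstream, at 7.38 to 23.1, and lost none. Id2 lost the region 6968 bases upstream that is printed above (5.77 and 5.51 in acutely isolated ECs) and gained 2. Fold enrichment was not tested between groups.

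**Figure D5:**
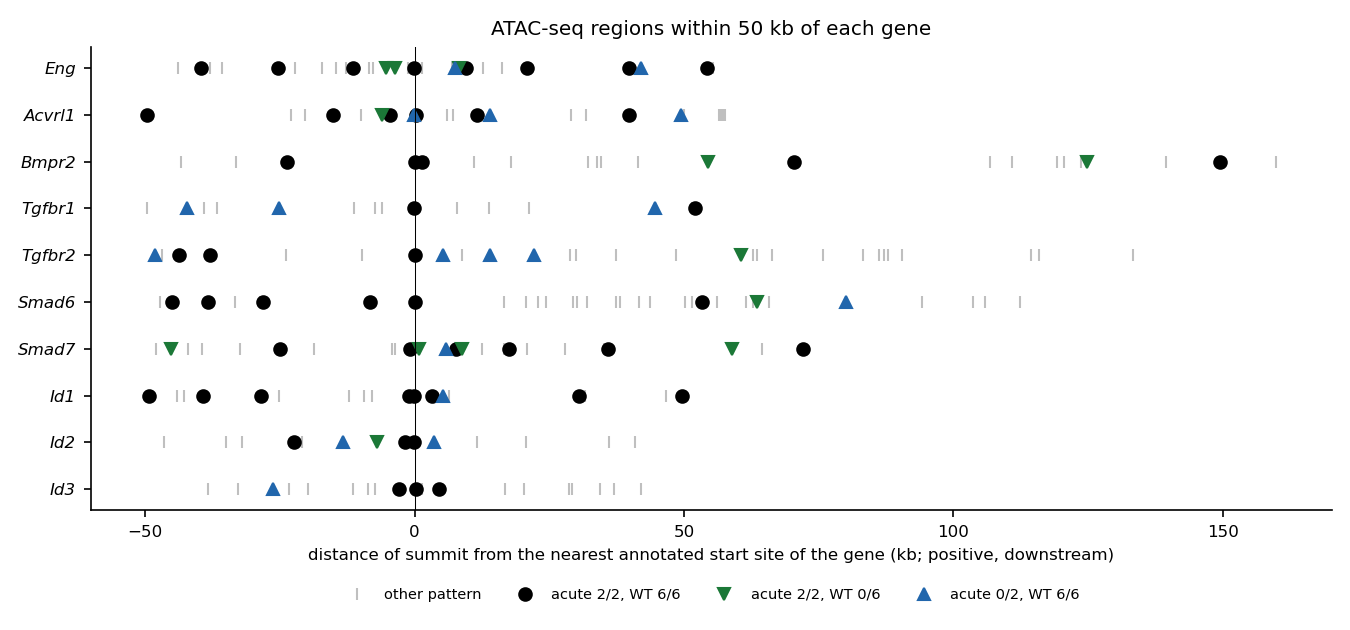
ATAC-seq regions at the 10 genes (y axis) by the distance of their summit from the nearest start site of that gene (x axis, kb). Triangles pointing down are the 13 regions in both acutely isolated libraries and no WT culture, triangles pointing up the 18 in all 6 WT cultures and no acutely isolated library, circles the 50 in all 8 libraries and ticks the other regions.

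In windows of 300 bases at the summits, TGANTCA was present in 10 of the 18 gained regions and 2 of the 13 lost ones. Over the genome it was present in 52.6% of 10207 gained and 5.88% of 3671 lost regions, so the members' gained regions were near the share of gained regions in general. GGAATG was in 6 of the 18 gained regions (28.3% over the genome) and 2 of the 13 lost (16.5%). CTTTGAT was in 0 of the 18 gained (3.70%) and 1 of the 13 lost (15.1%). GGCGCC was in 15 of the 50 regions present in all 8 libraries (19.5%). GTCTAGAC was in 2 of 226 regions (0.291% over the genome), the Smad6 promoter and the Id2 region shown above. In RefSeq promoters, from 250 bases before to 50 after a start site, 7 of 10 members had an entry, and none was used for Acvrl1, Id1 and Smad7. GGCGCC was in those of Bmpr2, Id2 and Tgfbr1 (11.9% of 32851 promoters), GTCTAGAC in that of Smad6 (0.213%) and GGAATG in that of Id3 (14.7%), while TGANTCA (7.81%) and CTTTGAT (3.73%) were in none of the 7.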

How the data were processed

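RNA-seq and ATAC-seq of adult male mouse brain ECs were analysed from the deposited files. The authors quantified reads with Salmon 0.14.0 against GENCODE M21 transcripts (GRCm38), and the deposited values are estimated counts and TPM per transcript. ATAC-seq reads were aligned by the authors (HISAT2 2.1.0), who called peaks in each library (MACS2 2.1.2), and the deposited peak lists give the fold enrichment and the −log10 q of each peak. Estimated counts and TPM were summed per gene symbol, and the counts were rounded. Genes were filtered with filterByExpr, scaled by TMM and tested by the quasi-likelihood test of edgeR 4.0.16 (R 4.3.3) within the groups compared. P-values were adjusted over all genes tested. DESeq2 1.42.0, other scalings, a transcript length offset (from effective lengths), subsets of the cultures and leaving out each library were alternatives. Restriction to protein-coding transcripts and rescaling of TPM were chosen after seeing the data. The edgeR fits were tested on simulated data. Peaks with a fold enrichment over 2 and a −log10 q over 2 were merged over libraries. Python 3.11.15 was used for tables and matplotlib 3.10.9 for plots. Depth was 24284843 to 94686456 estimated counts per library, and no replicate pair agreed within sampling noise. Other libraries of the series, among them those of cerebrum alone, were not analysed here.

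The members and gene lists were chosen with earlier results of these data known. The genes named were the 10 members, the 3 called pathway genes with the largest change per direction and comparison, and the 3 protein-coding genes most correlated with Id1, Id3, Eng and Smad6. Marker and immediate early genes were described as lists. Some genes that this rule names are not reported here.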

Additional observations from a re-analysis of the deposited data

Results flagged for a closer look

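The effect of stabilized beta-catenin differed between isolation methods for 6 members by an interaction term in edgeR over the 8 cultures of 36 cycles, with 2 wells per method and genotype. The values are the log2 fold change within method B minus that within method A. The difference was −1.28 for Eng (adjusted p = 0.00115), −0.61 for Smad7 (adjusted p = 0.0144), 0.34 for Acvrl1 (adjusted p = 0.0139), 0.84 for Smad6 (adjusted p = 0.00625), 1.25 for Id2 (adjusted p = 0.00144) and 0.98 for Id3 (adjusted p = 0.000685). For Bmpr2, Tgfbr1, Tgfbr2 and Id1 it was −0.62, −0.18, 0.08 and 0.37 (adjusted p = 0.0907, 0.0901, 0.524 and 0.102). The same test called 51.7% of 12934 genes, and each method and genotype came from 1 experiment, so that method, genotype of the controls and experiment cannot be told apart.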

How the results depend on the processing

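Of 560 values of members under alternatives, 493 kept their direction and side of the threshold, 14 lost a call, 28 gained one and 25 changed sign. Culture called 3276 genes, 5989 without the TPM minimum and 2104 with wells summed (2422 to 3228 without 1 library). Of the members it called 3, but 1 with library size scaling or wells summed, 5 with a replicate block, in 36-cycle cultures or in method A (1 to 4 without 1 library). ECs against GFP-negative cells called 2394 genes, 1562 with the length offset and 4474 without the TPM minimum (1767 to 2779 without 1 library), and 7 members (7 to 8). Stabilization called 0 genes, but 18 with DESeq2, 182 with the block, 813 in method A, 1 in method B, 176 in its 36-cycle wells and 76 with method as a term, and 0 to 0 without 1 library. Of the members it called 0, but 2 with the block, 4 in method A, 1 with method as a term and 1 in 36-cycle method B wells (0 to 0 without 1 library). The interaction called 5151 to 6690 genes without 1 library.

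In culture, Tgfbr1 changed sign with DESeq2 (−0.0083), the length offset (−0.49), protein-coding transcripts (−0.13) and without acutely isolated replicate 1 (−0.21, against 0.3958 without replicate 2). Tgfbr2 did so with library size scaling (0.21), the offset (1.32), the replicate block (0.29), wells summed (0.0433), method A (0.27) and without acutely isolated replicate 1 (0.13, against −0.2234 without replicate 2), WT replicate 5 (0.04) or 6 (0.05). In ECs, Tgfbr1 did so with the offset (0.30), and Id2 with library size scaling (−0.28) and without GFP-negative replicate 1 (−0.11) or acutely isolated replicate 1 (−0.9976, against 0.8049 without replicate 2). Under stabilization this held for Acvrl1 without WT replicate 1 (0.0319, the highest of the fits that leave out 1 library, of which −0.3997 without stabilized replicate 1 was the lowest), Bmpr2 in 36-cycle cultures (−0.0043) and 36-cycle method B wells (−0.24), Tgfbr1 with the offset (0.13) and in method A (0.0507), Smad6 in method B (0.20), Smad7 with the block (0.51), and Id1 with the block (0.12) and in method B (0.18). The causes were not tested.

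The main fits did not treat samples of the same replicate number as pairs. Deviations of same-numbered samples correlated at −0.04 and 0.05 in culture against acutely isolated ECs, 0.06 in ECs against GFP-negative cells, and 0.54, 0.53, −0.0025 and 0.06 in stabilized against WT cultures. With 2 libraries per group, ECs against GFP-negative cells give 1 value for both numbers. It cannot show whether sorted fractions of the same number were paired. Stabilized and WT replicates 1 and 2, at 0.54 and 0.53, share isolation method A. Not every stabilized sample correlated best with its own number. With replicate number as a block, Eng was called higher (1.44) and Id3 lower (−1.0) under stabilization. In culture Eng (−1.62), Smad7 (−1.25), Acvrl1 (1.92) and Smad6 (2.23) gained a call while Id1 and Id3 lost it. Acutely isolated ECs have replicates 1 and 2 only, so the other WT wells had no partner in the culture comparison. Its fold changes with the block therefore rest on the method A wells. That fit is counted among the alternatives, but it is no separate check over all cultures. With −log10 q over 5, 9 of 10 members had a start site peak in every library (Eng lacked 1 WT culture). With 2 libraries a group, low genes such as Smad6 in GFP-negative cells had little depth behind them.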
